A study of Saccharina japonica with 9 samples.

Results

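A small group of the nuclear cytosines listed as methylated in the kelp *Saccharina japonica* was read far more deeply than most listed nuclear sites. These sites were selected on coverage: a nuclear position (any scaffold other than the chloroplast and mitochondrial genomes) was a member if at least 100 reads were listed there in at least 2 of the 9 libraries. The rule found 19102 members among 30240151 nuclear sites listed in any library, or 0.0632%. The median coverage of all listed nuclear sites was 7 to 9 reads per library, whereas the median coverage of listed members was 217 to 285 reads. Because coverage and listing chose the members, both are described below without a test. Methylation level and sequence context were not named by the rule, but a site had to be called methylated to be listed, and the number of methylated reads a call needed differed by depth and context, as given below.

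Whole-genome bisulfite sequencing (WGBS) covered 9 libraries of strain Ye-c12, each made from the entire body: 3 of the sporophyte (SP), 3 of the female gametophyte (FG) and 3 of the male gametophyte (MG). The sporophytes were diploid, 4 months old and grown from a cross of FG with MG. The gametophytes were haploid, 2 months old and propagated as clones from the blade of a Ye-c12 sporophyte, so stage, ploidy, age and culture cannot be told apart, and the labels do not say whether the 3 libraries of a stage came from separate cultures. In WGBS an unmethylated cytosine is read as thymine and a methylated cytosine as cytosine, and the deposited lists hold only cytosines called methylated (mCs), with a coverage of at least 5 reads. A member missing from a library was therefore either not covered or not called there, and its level in that library is not known.

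In eukaryotic genomes, satellite arrays, ribosomal DNA and transposable elements exist in many near-identical copies, and an assembly often keeps fewer copies than the genome holds. Reads from the missing copies then pile up on the copies kept. Cytosine methylation is best known from CpG, CHG and CHH contexts (H stands for A, C or T), and in plants the non-CpG contexts are characteristic of silenced repeats. Symmetric contexts, CpG and CHG, carry a cytosine on each strand and can be copied by maintenance methyltransferases after replication, while CHH has no such partner.

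Nuclear lists ranged from 684742 sites in SP2 to 6255023 sites in MG3, with 621 to 19789 sites per library at 100 or more reads and a highest coverage of 1607 to 3234 reads. SP2 and SP3 stood apart, with 621 and 854 such sites against 6811 or more in every other library. SP1 stood apart in another way. The background rate against which a site was called, recovered from the deposited p-values with a binomial model, was 0.0175% for CHH in SP1 and 0.0591% to 0.0704% in the other 8 libraries. For CpG it was 0.0746% in SP1 and 0.25% to 0.302% elsewhere.

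Members lay in few, short stretches. They occupied 455 of the 9613 scaffolds with a listed site, and 80 of these scaffolds held a single member. Members made up 44% of all listed sites of scaffold 6652, 38.2% of scaffold 4809 and 32.9% of scaffold 2915. The 10 scaffolds with most members held 7130 of them (37.3%), and the 38 scaffolds with 100 or more held 64.8%. Scaffold lengths were not used here, but 57.3% of members lay on scaffolds whose last listed position was below 50 kb, compared with 8.91% of all listed nuclear sites. Members less than 500 bases from the next were joined into 667 regions that spanned 203507 bases in all. Of these, 141 regions were single members, and the 251 regions with at least 10 members held 92.8% of all members.

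The 10 regions with most members were 1034 to 3611 bases long and held 5154 members (27.0%). The region with most was on scaffold 4809 from 6944 to 8820, with 748 members, or 39.9 per 100 bases counting both strands. Scaffold 2041 from 8379 to 11175 held 625, and scaffold 2915 held regions of 605 members from 16894 to 18328 and of 460 members from 10894 to 11927. Scaffold 3691 from 4502 to 8076 held 552, scaffold 5304 from 480 to 4090 held 475 and scaffold 6652 from 561 to 3100 held 474. Scaffold 2425 contributed regions of 420 members from 9283 to 11812 and of 393 members from 13834 to 15369, and scaffold 3145 contributed 402 members from 224 to 3297. Positions are those of the scaffolds in the deposited lists, whose assembly name is not given in the sources used here. What these regions encode was not analysed here.

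Coverage differed widely among these regions. The deepest site of all was on scaffold 2915 at 17327, on the minus strand in CHH context, with 3234 reads in MG3, 2669 in FG3 and 2030 in SP1. The median coverage of that region lay between 887.5 and 1560 reads in every library. The second region of scaffold 2425 reached 2733 reads, with library medians of 937.5 to 1481.5 reads. Scaffold 5304 was the shallowest of the 10, with library medians of 134 to 220 reads and a highest value of 357. The 5 members with the highest median coverage, from 1953 to 2452.5 reads, all lay on scaffolds 2915 and 2425, and their read-weighted levels were between 0.389% and 0.852%. The deepest by this measure was a minus-strand CpG of scaffold 2915 at 17367, with 11 of 1811 reads methylated in MG1 and 18 of 3094 in MG3, the libraries that listed it.

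The layout of listed cytosines within several regions recurred at a fixed distance. For each of the 85 regions with at least 50 members, sites listed in 2 or more libraries were moved along the region, and the share that met another site of the same strand and context was counted. In the second region of scaffold 2425 a shift of 199 bases brought 191 of 385 sites into register (49.6%), and a shift of 796 bases brought 123 of 128 (96.1%), against a median of 11.9% over all 1283 shifts. On scaffold 6652 the smallest such shift was 188 bases, with 318 of 531 sites (59.9%). Shifts of 188 bases also stood out on scaffolds 6520 (212 of 285 sites, 74.4%), 3353 (135 of 255, 52.9%), 9983 (31 of 63, 49.2%) and 4796 (132 of 328, 40.2%). Other regions of scaffold 3353, from 17349 to 19128 and from 13548 to 14345, shared the 199-base shift with scaffold 2425, at 52.2% and 50%. Scaffold 1743 had a shift of 248 bases with 110 of 145 sites (75.9%). In all, 16 of the 85 regions reached 40% at some shift, and the median of the best shares was 18.9%.

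**Figure D1:**
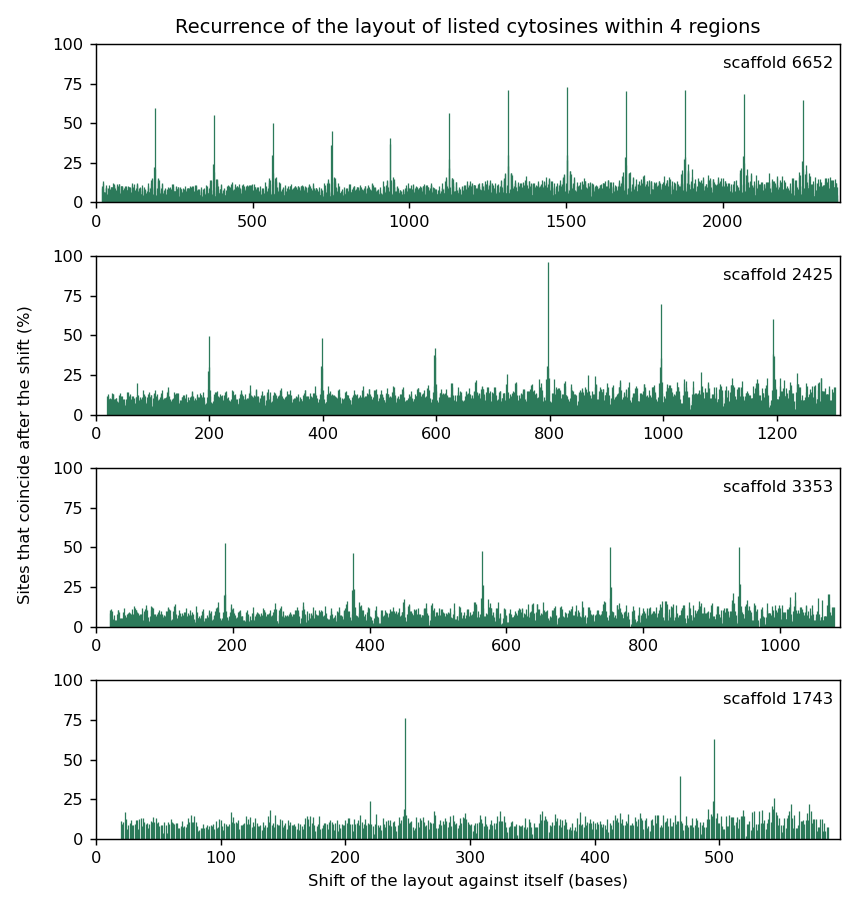
Share of listed cytosines (y axis, %) that met a cytosine of the same strand and context when the layout of a region was moved against itself by the number of bases on the x axis, for the 4 regions whose best shift had at least 100 coinciding sites and 40% or more. Isolated lines stand at regular spacing, 188 bases on scaffolds 6652 and 3353, 199 bases on scaffold 2425 and 248 bases on scaffold 1743, above medians over all shifts of 8.13% to 11.9%.

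The same layouts also occurred on different scaffolds. Among 3570 pairs of these regions, compared in both orientations, 77 pairs had at least 50% of their overlapping sites in register, while the median of the best share was 20.2%. Regions joined by such pairs formed 5 families of 32 regions with 6049 members (31.7% of all). The largest family held 11 regions on 9 scaffolds and 2183 members, among them scaffolds 6652, 6520, 3353, 4260, 5263 and 4796. Its best pair, scaffolds 6652 and 4796, had 113 of 128 sites in register (88.3%) when one was read on the opposite strand. A family of 10 regions lay on 10 scaffolds and held 986 members, and its best pair, scaffolds 724 and 1228, had 39 of 42 sites in register (92.9%). Scaffolds 2425 and 3353 formed a family of 5 regions and 1217 members. Scaffold 3691 shared its layout with scaffold 216 at 98 of 107 sites (91.6%) and with scaffolds 3558 and 2330, a family of 968 members. The last family joined scaffolds 2041 and 128. The regions of scaffolds 4809, 2915, 5304 and 3145 were in no family. Sites that share a layout may share a sequence, so members are not independent of each other, and no test below treats them as replicates.

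Methylation levels of members were low. Over the libraries that listed a site, the read-weighted level (methylated reads over all reads) had a median of 1.13%, and 90% of members lay between 0.507% and 2.17%. Of the 19102 members, 19064 (99.8%) were below 5%, 14 reached 10% and 1 reached 50%. Per library, the median level of listed members was 0.518%, 1.12% and 1.05% in SP1, SP2 and SP3. FG1, FG2 and FG3 had 1.18%, 1.1% and 0.991%. MG1, MG2 and MG3 had 1.23%, 1.18% and 0.995%. These values overlapped between stages, and SP1 was the lowest of the 9. A typical call rested on 1 to 3 methylated reads per library, and in SP1 61.1% of listed members had a single methylated read, compared with at most 9.17% in any other library.

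The listed level was lower at greater depth. In MG1 the median level was 1.68% at 100 to 199 reads, 0.943% at 200 to 499, 0.685% at 500 to 999 and 0.627% at 1000 or more. In SP1 it was 0.685%, 0.457%, 0.326% and 0.185% in the same classes. At 1000 or more reads the medians were 0.345% and 0.365% in SP2 and SP3, 0.497% to 0.604% in FG and 0.564% to 0.627% in MG, so the gametophyte libraries did not overlap the SP libraries in this class. Only 39 and 61 members were listed at that depth in SP2 and SP3, against 456 to 1037 in the gametophyte libraries. The fewest methylated reads with which a CHH site was listed were 2 at 100 to 199 reads and 3 at 1000 or more reads in all libraries but SP1, and 1 and 2 in SP1. A lower limit on the level that fell with depth was thus part of the lists, and its part in the decline with depth was not tested.

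**Figure D2:**
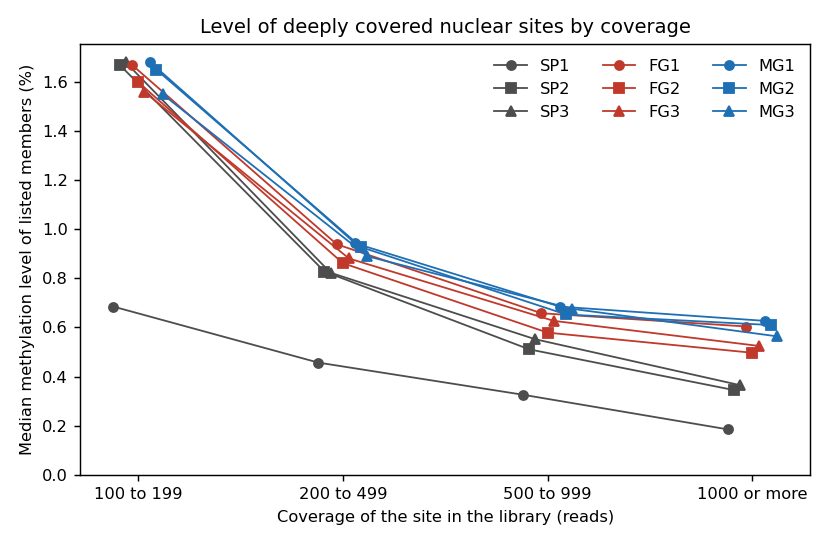
Median methylation level (y axis, %) of listed members by the coverage of the site in that library (x axis, reads), with 1 line per library. All 9 lines fall from the shallowest to the deepest class, and at 1000 or more reads the 6 gametophyte libraries (0.497% to 0.627%) lie above SP2 and SP3 (0.345% and 0.365%) and SP1 (0.185%).

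Against the background rate of its library and context, the median level of listed members was 13.2 to 17.8 times higher for CHH and 14.2 to 17.7 times higher for CHG in all libraries but SP1, where the ratios were 29.2 and 29.4. For CpG the ratio was 4.35 to 6.26, and 8.08 in SP1. Only listed sites enter these ratios, so sites with fewer methylated reads are missing from them. Members made up 3.37% to 10.6% of all reads at listed nuclear sites and 0.219% to 0.643% of the methylated reads. Every listed site had at least 1 methylated read, and the median coverage of all listed nuclear sites was 7 to 9 reads per library. A site with so few reads cannot be listed at a level as low as a deep site can. The gap between these shares was thus built into the lists, and it does not show that members were less methylated than other sites.

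Levels were also set side by side for the named regions, over the members each library listed, which were not the same sites in each library. In the region of scaffold 2915 from 16894 the read-weighted level was 0.201%, 0.423% and 0.481% in SP1, SP2 and SP3. FG1, FG2 and FG3 had 0.658%, 0.629% and 0.84% there, and MG1, MG2 and MG3 had 0.645%, 0.619% and 0.751%. All gametophyte libraries were thus above all SP libraries, and the same held for the other region of scaffold 2915, the region of scaffold 2425 from 13834, and those of scaffolds 3691 and 3145. On scaffold 2425 from 13834 the SP libraries had 0.21%, 0.436% and 0.382% and the gametophyte libraries 0.559% to 0.792%. The stages overlapped in the regions of scaffolds 4809, 2041, 5304 and 6652 and in the region of scaffold 2425 from 9283. On scaffold 4809 SP1 had 0.237%, SP2 0.627% and SP3 0.626%, and the gametophyte libraries had 0.62% to 0.693%. SP1 was the lowest library in each of the 10 regions. Its limit for listing was also lower: a CHH site at 1000 or more reads needed 2 methylated reads in SP1 and 3 in the other 8 libraries. The part of this limit in the SP1 levels was not tested. In the shallow region of scaffold 5304 the gametophyte libraries had 1.22% to 1.71% and the SP libraries 0.537%, 1.55% and 1.49%. SP2 and SP3 listed only 1 to 60 members in each of these regions, and 113 to 519 members were listed per gametophyte library.

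Among listed sites, CpG made up a smaller share of members than of other recurring sites, and CHG and CHH a larger share. The contexts of all cytosines in the member regions, listed or not, were not counted. The shares therefore do not show in which context cytosines of these regions were methylated more often. The 19102 members were 1529 CpG (8.0%), 4380 CHG (22.9%) and 13193 CHH (69.1%), with 9729 on the plus and 9373 on the minus strand. In FG1 the CpG share was 7.19% of listed members, compared with 20.6% of the other listed nuclear sites that recurred in 2 or more libraries. In MG1 the shares were 6.75% and 20.4%, and in SP1 4.58% and 24.9%. SP2 and SP3 had the highest CpG shares among members, 24.8% and 21.5%, and also among other sites, 54.8% and 55.3%. The CpG share of members was lower in all 9 libraries, by 18.4 percentage points on average (9.86% ± 7.63 against 28.2% ± 15.3, SD, n = 9). The CHH share was higher in all 9, by 13.7 points (66.8% ± 7.83 against 53.1% ± 12.3), and the CHG share was higher in all 9, by 4.64 points (23.3% ± 0.764 against 18.7% ± 3.09). Each difference had p = 0.00391 in an exact two-sided sign-flip permutation test over 9 libraries, the smallest p this design can give, and 0.00391 after Benjamini-Hochberg adjustment over the 3 contexts. The CpG difference averaged -28.0 points in SP, -13.7 in FG and -13.4 in MG, and the libraries share many of their sites.

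The contexts did not face the same limit at high depth. At 1000 or more reads in the 8 libraries other than SP1, a CpG was listed with no fewer than 6 to 7 methylated reads, while a CHG or CHH needed 3. When members and other sites were held to at least 4 methylated reads, the CpG difference was -15.8 points (exact permutation p = 0.043) and the CHH difference was 11.8 points with p = 0.0898. A cut at 4 reads is still below the limit of a CpG at 1000 or more reads, so it did not level the contexts there. The part of the limits in the remaining difference was not tested.

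**Figure D3:**
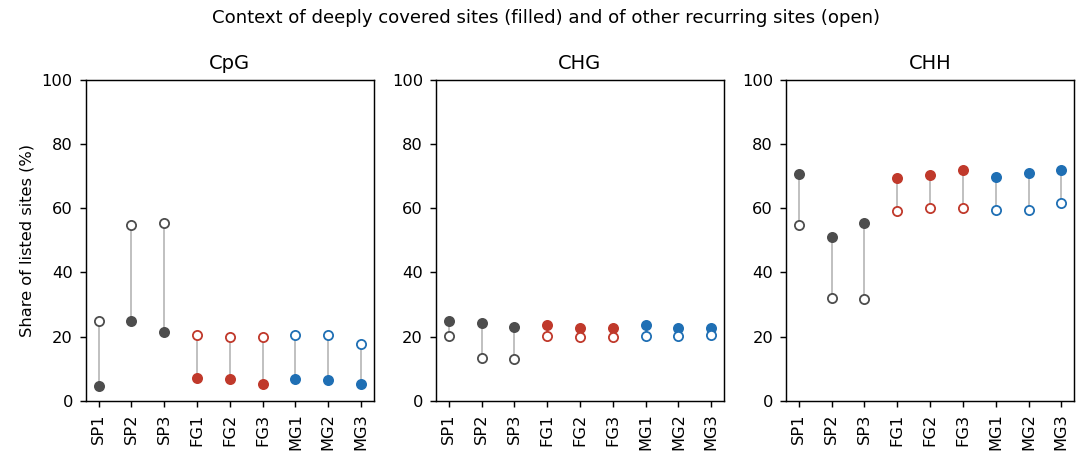
Share of listed sites (y axis, %) in CpG, CHG and CHH context for each library (x axis), with members as filled points and other recurring nuclear sites as open points. The filled CpG point lies below the open one in all 9 libraries (4.58% against 24.9% in SP1), and the filled CHG and CHH points lie above.

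Regions differed in their contexts. Over the 85 regions with at least 50 members the CpG share ran from 0% to 16.7%, with a median of 5.37%, and the CHH share from 37.1% to 85.7%. The 10 scaffolds with most members differed in the same way. CpG made up 12.3% to 16.2% of members on scaffolds 4809, 2041, 3145, 2915 and 3691. It made up 4.43% to 6.68% on scaffolds 6652, 3353, 5304, 4373 and 2425. The layout families of 11 and 10 regions had CpG shares of 4.08% and 4.06%, the family of scaffolds 2425 and 3353 had 6.16%, that of scaffold 3691 had 11.3% and that of scaffold 2041 had 14.2%.

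Some symmetric partners were both members. Of CpG members, 19.8% belonged to 151 pairs in which the facing cytosine of the other strand was a member too, and of CHG members 30.6% belonged to 671 such pairs. Where both strands were listed in a library, their levels differed by a median of 0.233 percentage points for CpG and 0.303 points for CHG. The median levels were 1.04% on the plus and 0.899% on the minus strand for CpG, and 0.766% and 0.734% for CHG. Members lay in dense stretches, and their listed levels had a lower limit. How often cytosines that do not face each other are both members, or differ as little, was not computed.

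Deep sites recurred between libraries. Members were 0.295% of the sites listed in exactly 2 libraries, 10.8% of those in 4, 70.3% of those in 6 and 85.7% of those in 7, then 73.5% of those in 8 and 42.1% of those in 9. The rule itself requires 2 listings, and a deep site is more easily listed, so these shares are a description. Listing was uneven by stage: 6271 to 9776 members were listed in the FG libraries, 9582 to 10903 in the MG libraries, and 5344, 545 and 692 in SP1, SP2 and SP3. No SP library listed 12906 members (67.6%), and only SP libraries listed 31. The same shares over all recurring nuclear sites were not computed. All 6 gametophyte libraries listed 1088 members on 72 scaffolds, of which 331 were on scaffold 2915, 137 on scaffold 2425 and 119 on scaffold 4809. All 9 libraries listed 8 members, 3 of them on scaffold 2915. Across those 1088 members, Spearman correlations between libraries were 0.43 to 0.53 for levels within a stage and 0.46 to 0.56 between stages. For coverage they were 0.89 to 0.99. Both describe sites that share scaffolds and, in part, sequence.

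The 8 members listed in every library gave 1 fixed set on which levels could be compared. Their read-weighted level was 0.389%, 0.58% and 0.629% in SP1, SP2 and SP3. It was 1.20%, 0.999% and 1.01% in FG1, FG2 and FG3, and 1.14%, 1.37% and 1.27% in MG1, MG2 and MG3. All gametophyte libraries were above all SP libraries, and FG and MG overlapped. FG exceeded SP by 0.536 points (1.07% ± 0.114 against 0.533% ± 0.127, SD, n = 3 each), with p = 0.1 in an exact two-sided permutation test, and by 0.464 points without SP1. MG exceeded SP by 0.728 points (1.26% ± 0.116, n = 3), with an exact p of 0.1, and by 0.656 points without SP1. MG exceeded FG by 0.191 points with an exact p of 0.2. The smallest p of 3 libraries against 3 is 0.1, so no difference could pass 0.05, and adjusted over the 3 comparisons the values were 0.15, 0.15 and 0.2. FG and MG were compared with the same SP libraries. Without the CpG sites on scaffolds 105 and 3233, whose levels are above 5%, the 6 others had 0.204%, 0.421% and 0.453% in SP, 0.547% to 0.643% in FG and 0.559% to 0.886% in MG. The FG difference from SP was then 0.239 points and the MG difference 0.324 points, still with no overlap (exact p = 0.1 for each). With each of the 8 sites weighted equally in place of by reads, the differences from SP were 2.46 points for FG and 5.53 points for MG, and the libraries overlapped (exact permutation p = 0.2 for each). On the 1088 members listed in all gametophyte libraries, MG was at 0.754% ± 0.0314 and FG at 0.712% ± 0.0486, and the libraries overlapped (exact p = 0.3).

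Scaffold 3233 at 20490, a CpG on the plus strand, was read 94 to 168 times in every library. Its level was 2.38%, 8.51% and 6.25% in SP1, SP2 and SP3, from 4 of 168, 8 of 94 and 7 of 112 reads. FG1, FG2 and FG3 had 21.5%, 15.3% and 17.6%. MG1, MG2 and MG3 had 18.6%, 16.2% and 14.5%. The gametophyte libraries were all higher than the SP libraries, with adjusted p = 0.104 for FG and 0.117 for MG in the test of single sites with edgeR described below. The 3 next sites by level in this set, all minus-strand CHH, were on scaffold 2915 at 17979, scaffold 3145 at 976 and scaffold 4809 at 8606, with 0.629%, 0.582% and 0.53%. Scaffold 105 at 162399, also a plus-strand CpG, was covered less evenly. It had 204 reads in FG3 and 253 in MG3 but 11 to 90 in the other libraries. Its level was 8.82% and 15.8% in FG3 and MG3, and 45%, 25%, 71% and 69.2% in FG1, FG2, MG1 and MG2. The methylated reads behind these levels numbered 18 in FG1, FG3 and MG2, 5 in FG2, 22 in MG1 and 40 in MG3. The SP libraries had 14 of 39, 2 of 11 and 6 of 90 reads methylated, or 35.9%, 18.2% and 6.67%.

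Methylated against unmethylated reads at single sites were compared by the quasi-likelihood test of edgeR, over all nuclear sites listed in all 6 libraries of 2 stages, with Benjamini-Hochberg adjustment over the sites tested. MG and FG shared 1303 such sites, of which 1088 were members. None passed an adjusted p of 0.05 in either direction (0% of the sites tested higher and 0% lower). An unadjusted p below 0.05 was found at 22 of the 1303 sites, all members. Limma and Fisher's exact test also called 0, and edgeR with a term for the replicate number called 2, of which 1 was a member. The median difference over members was 0.0408 percentage points, with MG above FG at 58.2% of members, and 0.0402 points over all sites tested. The libraries of the stages did not overlap at 109 members (10%), against 9.67% of all sites tested. The smallest unadjusted p belonged to scaffold 2915 at 11324, a CHG on the minus strand named here after its value was seen. It had 1.73%, 1.37% and 1.26% in MG and 0.491%, 0.443% and 0.78% in FG, with an adjusted p of 1 in edgeR.

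FG and SP shared only 27 sites, of which 14 were members, since a site had to be called in all 6 libraries. The test called 0 sites lower (0%) and 3 higher in FG, all of them members. These 3 were 21.4% of the 14 members and 11.1% of the 27 sites tested, members included. They were the minus-strand CHG sites of scaffold 2915 at 17825 and 17465 and a minus-strand CHH of scaffold 2425 at 15017. At 17825 the level was 0.713%, 0.612% and 0.683% in FG and 0.116%, 0.29% and 0.271% in SP1, SP2 and SP3 (edgeR adjusted p = 0.0256). At 17465 it was 0.549%, 0.88% and 0.547% in FG and 0.199%, 0.286% and 0.244% in SP (adjusted p = 0.0256). At 15017 it was 0.66%, 0.561% and 0.561% in FG and 0.104%, 0.331% and 0.281% in SP (adjusted p = 0.0355). The FG libraries were above the SP libraries at all 3, and the counts behind the SP levels were 2 to 5 methylated reads. These calls did not hold without single libraries: the count fell to 0 without FG1, FG2, FG3 or SP1 and to 1 without SP2 or SP3. Limma called 0, and so did edgeR with a term for the replicate number. Fisher's exact test on summed reads called 4, all members and all higher in FG, as did edgeR on the 16 sites with at least 20 reads. The libraries did not overlap at 5 of the 14 members (35.7%), against 25.9% of all sites tested, members included. FG was higher at 4 of the 5 and lower at scaffold 4809, position 8365, with 0.419%, 0.452% and 0.415% in FG against 0.455%, 0.645% and 0.551% in SP (edgeR adjusted p = 0.852).

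MG and SP shared 38 sites, of which 18 were members. The test called 0 in either direction (0% higher and 0% lower of all tested). An unadjusted p below 0.05 was found at 8 of the 38 sites, all members. The smallest adjusted p was 0.0563 in edgeR, at scaffold 2425, position 14950, a plus-strand CHH. Its level was 0.654%, 0.858% and 0.661% in MG and 0.205%, 0.266% and 0.309% in SP. Limma called 0 and Fisher's exact test on summed reads called 4, all members and all higher in MG, as did edgeR on the 22 sites with at least 20 reads. With a term for the replicate number edgeR called 5, also all members and all higher in MG. The libraries did not overlap at 11 of the 18 members (61.1%), against 34.2% of all sites tested, members included. The level was higher in MG at 16 of 18 members, with a median difference of 0.382 points against 0.465 points over all sites tested.

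Higher levels were rare and clustered. Of the 38 members at 5% or more, 27 lay on scaffold 2915, and the other 11 on 8 scaffolds. These sites were singled out after their values were seen. On the plus strand of scaffold 2915, a run of 24 members lay within 68 bases from 16932 to 16999, 20 of them in CHH, 2 in CHG and 2 in CpG context. Not all of these 24 reached 5% over the libraries that listed them. FG3 had 42 to 54 methylated reads at every one (median 49) and MG3 had 13 to 20 (median 16). FG1 and FG2 had 2 to 5 where listed, MG1 and MG2 had 2 to 5, and SP1 had 1 or 2, while SP2 and SP3 listed none. The number of methylated reads in FG3 thus stayed nearly flat while all reads went from 145 to 409, so the level fell from 34.5% at the first member to 11.2% at the last. The end at 16999 was not where the methylated reads of FG3 stopped. FG3 had 41 of 423 reads at 17003, 40 of 470 at 17012, 26 of 480 at 17018 and 11 of 511 at 17023. Over the 269 plus-strand members listed farther along the region FG3 had a median of 6 methylated reads.

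The minus strand of the same edge showed a similar but weaker pattern in the same libraries. At its 22 members from 16894 to 16997, FG3 had 11 to 20 methylated reads at the 21 it listed and MG3 had 4 to 16 at all 22, while all reads went from 102 to 1069 in FG3. The other libraries had 1 to 8. FG3 and MG3 were also the libraries with 204 and 253 reads at the CpG of scaffold 105. Whether the methylated calls of the run came from the same reads is not shown by counts per site.

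**Figure D4:**
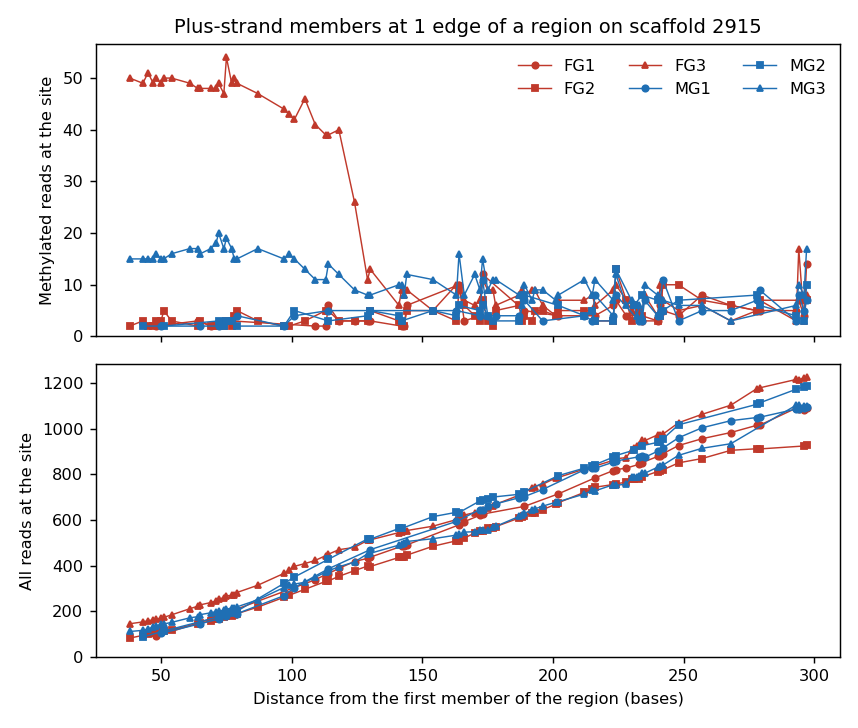
Methylated reads (upper panel) and all reads (lower panel) at plus-strand members of a region on scaffold 2915, by distance in bases from the first member of the region, for the 6 gametophyte libraries where the site was listed. FG3 stays at 42 to 54 and MG3 at 13 to 20 methylated reads along the run while coverage climbs. At a distance of 129 bases FG3 is down to 11 of 511 reads and MG3 to 8 of 452, and MG3 has 16 of 537 again at 164 bases.

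The other members at 5% or more were mostly single sites. Scaffold 702 at 230217, a plus-strand CpG and the only member above 50%, had 99 of 101 reads methylated in FG1, 101 of 103 in MG1 and 112 of 119 in MG2. It had 26 of 29 in SP1, 23 of 28 in FG2 and 6 of 7 in MG3, and was not listed in SP2, SP3 or FG3. It lay 2 bases before the last listed position of its scaffold, 230219. A CpG of scaffold 2685 at 18177 had 10 of 132 reads in SP2, 8 of 122 in FG1 and 16 of 211 in MG3. A CpG of scaffold 2060 at 56052 had 3 of 95 in SP2, 10 of 97 in FG1 and 9 of 140 in MG3. A CHH of scaffold 1839 at 22018 had 3 of 161 in SP1, 11 of 101 in FG1 and 14 of 136 in MG3. Scaffold 1275 held 4 CHH sites at 5.19% to 6.72%, which no FG library listed.

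Relative coverage of the members was similar in MG and FG on most scaffolds. This is a description, since coverage chose the members, and on scaffolds 1275, 2777 and 1304 most members were listed in no FG library. Coverage was set relative to the 1088 members that all gametophyte libraries list, whose median was 736 to 947.5 reads. On 37 of the 38 scaffolds with 100 or more members, listed members of all 6 libraries gave a ratio of MG to FG. Its median was 1.03, and it was between 0.9 and 1.1 on 27 scaffolds. It was highest on scaffold 1275, at 3.47. The median coverage there was 135, 140.5 and 208.5 reads in MG and 41, 38 and 57 in FG, with 250 to 332 members listed per MG library and 7 to 10 per FG library. On scaffold 2777 the ratio was 1.92, with 130, 132 and 203.5 reads in MG and 66, 69.5 and 101 in FG. On scaffold 1304 no FG library listed any of the 127 members, while MG had 117, 110 and 173.5 reads at 85 to 98 listed members and SP had 52, 52 and 38.5 at 4 to 9. No ratio was below 0.821. Coverage of members not listed in a library is unknown, so the FG values of scaffolds 1275 and 2777 rest on 1 to 10 sites per library.

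**Figure D5:**
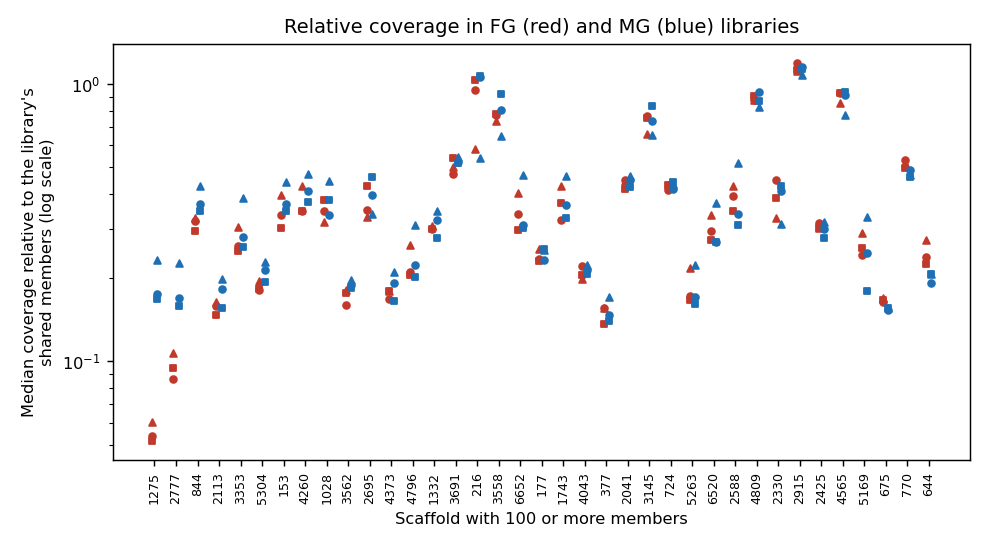
Median coverage of listed members (y axis, log scale, relative to the members shared by all 6 gametophyte libraries) on 37 scaffolds with at least 100 members, ordered by the ratio of MG to FG, with 1 point per library (circle, square and triangle for replicates 1, 2 and 3). FG and MG points lie close on most scaffolds. On scaffolds 1275 and 2777 the mean of MG is 3.47 and 1.92 times that of FG. Most members of these scaffolds passed the depth rule without any FG library, and their FG points rest on 1 to 10 listed sites per library.

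Listing followed the same scaffolds. At least 2 MG and no FG libraries listed 2817 members (14.7%), and scaffold 1275 held 366 of them, scaffold 3353 163, scaffold 2425 149, scaffold 2777 142 and scaffold 1304 all of its 127. At least 2 FG and no MG libraries listed 1044 members (5.47%), with at most 57 on a scaffold. The same shares over all nuclear sites listed in 2 or more libraries were not computed, so these counts do not set members apart from other sites. The members of scaffold 1304, and most members of scaffolds 1275 and 2777, passed the depth rule without any FG library, so the rule has a part in their counts. A CpG of scaffold 1304 at 77990 had 13 of 114, 6 of 95 and 17 of 163 reads methylated in MG and 3 of 52, 2 of 54 and 2 of 39 in SP. The number of listed sites per library also differed between the sexes, with 3443506 to 5803035 sites for FG libraries and 5043993 to 6255023 for MG libraries, and its part in these counts was not tested.

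The limit of 100 reads did not fall at a natural break. At the limit, 162 sites had 100 reads as their second highest coverage and 163 sites had 99. The first kind were 12.3% CpG with a median level of 1.90%, the second 17.2% CpG with 1.91%. The nearest members by scaffold were on scaffold 29 at 252770, with 2 of 103 reads in FG1 and 2 of 100 in MG1, and on scaffolds 33 at 760264 and 56 at 302033. The nearest sites outside were on scaffold 17 at 452862, with 3 of 99 reads in FG2 and 2 of 117 in MG2, and on scaffolds 34 at 758834 and 50 at 527327.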

How the data were processed

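The authors treated DNA with bisulfite, aligned paired reads with Bismark (FastQC is also named in the submitters' processing notes) and deposited 1 list of mCs per library. By the paper's supplementary methods, a read needed a single best alignment, and pairs at identical coordinates were removed as duplicates before calling. The part of these steps in the coverage of members was not tested. The deposited counts are methylated and unmethylated reads per cytosine, unscaled. A deposited fraction gives the methylated share of those reads. The deposited p-value and corrected p-value come from the authors' call. Coverage was 5 or more at every listed site, with 1 or more methylated reads and corrected p-values under 0.05. The assembly name is not given in the sources used here.

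From the counts, members, regions, levels and context shares were computed with Python 3.11.15, numpy 2.4.6, pandas 2.3.3 and scipy 1.17.1, and figures were drawn with matplotlib 3.10.9. The background rate was solved from the p-values of up to 300 sites per library and context. Sites were tested with edgeR 4.0.16 in R 4.3.3, with 1 intercept per library and 1 stage coefficient on the methylated reads, and limma 3.58.1 as an alternative. Library scaling does not enter this test. On simulated counts for MG and FG (1303 sites, 200 raised 4-fold in MG), the model recovered 92.5% of the changed sites with 8 false calls. These counts were drawn from a binomial model at the pooled level and real coverage of each site. They held no added spread between libraries and no listing limit, so the 92.5% does not give the power for the real sites. Repeat layouts were scored at shifts of at least 20 bases with at least 40 sites.

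Groups came from the sample labels. Named items were the 10 scaffolds and 10 regions with most members, the 5 deepest members, the 5 with the highest level among those listed everywhere, up to 3 called members per comparison and direction, and the 3 sites on each side of the limit. Others were named after their values were seen. The members and lists were chosen with earlier results of these data known. The repeat layouts and families were chosen after the regions were seen. Replicate numbers are shared between stages. Against SP, same-numbered libraries deviated together for replicates 1 and 3 (correlations of 0.389 to 0.601) but hardly for replicate 2 (0.0775 and 0.0921). Between MG and FG the correlations were -0.0257 to 0.266. Because they did not deviate together in every pair, a model with a term for the replicate number (replicate block) was an alternative only. Counts of reads are those left after the removal of duplicate pairs that the paper describes, and whether they equal counts of molecules is not known. The p-values measure only the spread between these libraries, except in Fisher's exact test, which sums the reads of a stage and leaves this spread out.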

Additional observations from a re-analysis of the deposited data

How the results depend on the processing

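Context shares kept their direction in all 45 recomputed values. Without 1 library the CpG difference was -19.1 to -16.4 points, CHG 3.87 to 4.96 and CHH 12.4 to 14.2 (each exact permutation p = 0.00781). With at least 4 methylated reads the CHH difference was 11.8 (exact permutation p = 0.0898), no longer past 0.05. In the 6 gametophyte libraries, chosen after seeing the data, CpG was -13.5, CHG 2.77 and CHH 10.8 (exact permutation p = 0.0312, the smallest possible).

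Member levels kept their direction in all 45 recomputed values. Without 1 library FG exceeded SP by 0.464 to 0.585 points, MG exceeded SP by 0.656 to 0.788 and MG exceeded FG by 0.136 to 0.257. A mean over sites in place of read weights gave 2.46, 5.53 and 3.07 points (exact permutation p = 0.2, 0.2 and 0.3), so that SP no longer lay apart from FG or MG, and the median over sites gave 0.251 points for FG over SP (p = 0.2). Paired by replicate number (replicate block), the exact sign-flip test cannot go below 0.25, and the differences were unchanged at 0.536, 0.728 and 0.191 by construction.

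Sites called depended on the setting. The replicate block gave 2 between MG and FG (1 a member), 0 between FG and SP and 5 between MG and SP. Same-numbered libraries correlated by -0.0257 to 0.266 for MG and FG, 0.0921 to 0.592 for FG and SP and 0.0775 to 0.601 for MG and SP, not above 0.1 in every pair. limma gave 0, 0 and 0. Fisher's exact test and a coverage of at least 20 reads each gave 0 between MG and FG, 4 between FG and SP and 4 between MG and SP. Without 1 library the counts were 0 between MG and FG, 0 to 1 between FG and SP and 0 between MG and SP. Some of these change the set of sites tested, and the cause was not tested. The 3 sites called for FG and SP stayed higher in FG in all 30 recomputed values and passed the threshold in 6.

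The SP comparisons rest on few sites: SP2 and SP3 listed 545 and 692 members, and 2 to 5 methylated reads per SP library lay behind the 3 sites called.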
